A study of Mus musculus with 6 samples.

Results

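The mouse mitochondrial genome holds 37 genes, and their transcripts were followed in the myocardium of mice injected with STZ or with PBS. The members are all genes that the GRCm38 annotation places on the mitochondrial chromosome, 37 of the 55401 genes in the deposited files: 13 protein genes, 2 rRNA genes and 22 tRNA genes. RNA sequencing had been done on 3 libraries labelled STZ injection and 3 labelled PBS injection, all from male wild-type (WT) mice with a time label of 8 weeks. STZ, short for streptozotocin, kills pancreatic beta cells and was used in the series to make mice diabetic, and PBS is buffered saline. The question was how gene expression in the diabetic heart differs. The starting point of the 8 weeks is not given, and neither is it stated that each library is a different animal, so p-values measure only the spread between libraries, which may be technical.

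Both strands of mitochondrial DNA are transcribed as long precursors by the polymerase POLRMT with the factors TFAM and TFB2M. The tRNA genes lie between the rRNA and protein genes, and the precursor is cut at their ends by the mitochondrial RNase P and by ELAC2, which frees the mRNAs and rRNAs that they border. The proteins are core subunits of respiratory complexes I, III and IV and of ATP synthase, on which the beating heart depends for its ATP, and the rRNAs and tRNAs serve the mitochondrial ribosome that makes them. Mature mitochondrial tRNAs end in CCA and carry no poly(A) tail, and a fragment of an uncut precursor that covers a tRNA gene is counted to that gene as well. In poly(A)-selected libraries such as these, the value of a tRNA gene cannot be divided into mature tRNA and precursor.

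Most of the genes that differed between the groups were short tRNA genes, and many lay close together. The sequences below, from the GENCODE M21 transcripts (build GRCm38), show the 3 adjacent tRNA genes between mt-Nd1 and mt-Nd2, which were among those lowest in STZ relative to PBS, then the tRNA gene between an rRNA and a protein gene, then a tRNA gene whose STZ and PBS libraries overlapped, and last the tRNA gene at the bottom of the range. Each is written 5′ to 3′ along its own strand, and capitals mark bases that the annotation also gives to a neighbouring gene.
mt-Ti: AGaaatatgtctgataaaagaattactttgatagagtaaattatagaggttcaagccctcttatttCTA
mt-Tq: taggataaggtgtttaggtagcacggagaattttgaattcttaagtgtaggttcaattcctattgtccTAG
mt-Tm: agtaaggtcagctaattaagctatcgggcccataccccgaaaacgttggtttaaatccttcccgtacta
mt-Tl1: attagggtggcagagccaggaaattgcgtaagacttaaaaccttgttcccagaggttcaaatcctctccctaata
mt-Tp: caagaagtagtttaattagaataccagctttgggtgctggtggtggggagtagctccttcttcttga
mt-Ts2: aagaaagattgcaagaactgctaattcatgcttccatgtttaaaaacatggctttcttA
The isoleucine tRNA gene mt-Ti lies at chrM:3706-3774 on the plus strand of the annotation, where 2 of its bases belong to mt-Nd1 as well and 3 to mt-Tq. The glutamine tRNA gene mt-Tq is on the minus strand at chrM:3772-3842, and the methionine tRNA gene mt-Tm on the plus strand at chrM:3845-3913. The leucine tRNA gene mt-Tl1, at chrM:2676-2750 on the plus strand, abuts mt-Rnr2 on one side and mt-Nd1 on the other with no base between them. The proline tRNA gene mt-Tp is on the minus strand at chrM:15356-15422, and the serine tRNA gene mt-Ts2 on the plus strand at chrM:11613-11671.

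Values are FPKM (fragment density per kilobase of a gene's transcript, scaled to the mapped fragments of the library) as deposited. For PBS replicate 3 only 7711 of the 55401 genes were listed (13.9%), none of them mitochondrial, so the comparison rests on STZ replicates 1 to 3 and PBS replicates 1 and 2, whose FPKM summed to between 531384 and 589719 per library. Fragment numbers could not be recovered from the values, so the depth is unknown. The labelled tissue was checked with the heart muscle genes Myh6, at 2336 ± 182 FPKM in STZ (SD, n = 3) and 3004 ± 112 FPKM in PBS (SD, n = 2), and Tnnt2, at 920 ± 156 FPKM in STZ and 713 ± 60.2 FPKM in PBS. The Y-linked gene Ddx3y lay between 6.26 and 10.2 FPKM in these 5 libraries of male mice. The limma test over all genes called 672 of 11556 at an adjusted p under 0.05 (5.82%), 421 higher and 251 lower in STZ. An unadjusted p under 0.05 was reached by 3074 of the 11556 genes, which is the background for all such counts below. The split moved with the scaling, to 325 higher of 670 after centring each library on its median, 336 of 669 after quantile normalization, 341 of 657 with mitochondrial genes and their nuclear copies left out of the scaling total, 464 of 635 after rescaling to TPM and 675 of 810 after rescaling to the mitochondrial total.

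About as many mitochondrial tRNA genes passed the test as did not, and those that passed were lower in STZ, as was 1 rRNA gene, while none of the protein genes passed. Of the 36 mitochondrial genes tested, 12 were lower in STZ and 0 higher (33.3%), where 2.17% of all genes tested were lower and 3.64% higher. These 12 were 11 of the 21 tRNA genes tested and 1 of the 2 rRNA genes. The median log2 fold change was -1.20 over the tRNA genes and -0.19 over the protein genes, beside 0.06 over all genes tested. The 37th gene, mt-Ts2, lay between 0.12 and 0.25 FPKM in every library and did not pass the filter on low values, while the other 36 exceeded 1 FPKM in all 5 libraries. In libraries of whole tissue, fewer cells of a type and less RNA per cell cannot be told apart. Each of the 12 genes kept a negative log2 fold change in every alternative run. Without PBS replicate 1 or PBS replicate 2 a single PBS library remained, and the calls did not hold there. The median log2 fold change of the tRNA genes was then -1.36 and -1.11. Without STZ replicate 2 there were 7 calls, and without the filter on low values 2, mt-Tc and mt-Tr.

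**Figure D1:**
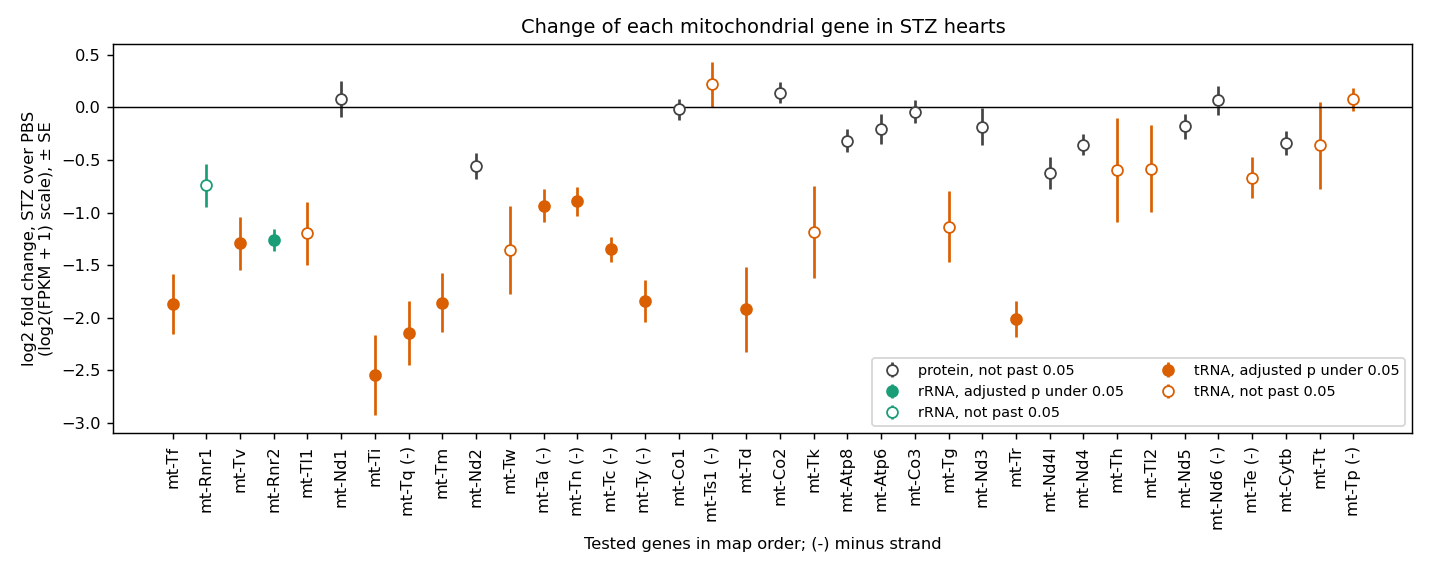
Log2 fold change of STZ over PBS (vertical axis, on the log2(FPKM + 1) scale, with the standard error as a line) for the 36 tested mitochondrial genes in map order, in grey for protein, green for rRNA and orange for tRNA genes. Filled points have an adjusted p under 0.05, and all 12 of them are rRNA or tRNA genes below 0.

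Summed over a class, the 22 tRNA genes reached 10376, 7673 and 9602 FPKM in STZ replicates 1 to 3, against 17732 and 18468 FPKM in PBS replicates 1 and 2. The STZ mean was 50.9% of the PBS mean, and the groups did not overlap. The 2 rRNA genes summed to 2450, 3074 and 3001 FPKM in STZ and to 6059 and 5611 FPKM in PBS, a STZ mean of 48.7% of the PBS mean. The 13 protein genes summed to 246376, 212250 and 238996 FPKM in STZ and to 253563 and 253397 FPKM in PBS. The protein sums differed far less, with a STZ mean of 91.7% of the PBS mean, although every STZ sum lay below both PBS sums. As shares of the FPKM total, 39.9% to 43.2% in STZ and 43.0% to 43.2% in PBS, the protein groups overlapped. All 37 genes together took 45.5%, 42.0% and 43.3% of the FPKM total in STZ and 47.3% and 47.1% in PBS, without overlap. These sums and shares are descriptions and were given no test.

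**Figure D2:**
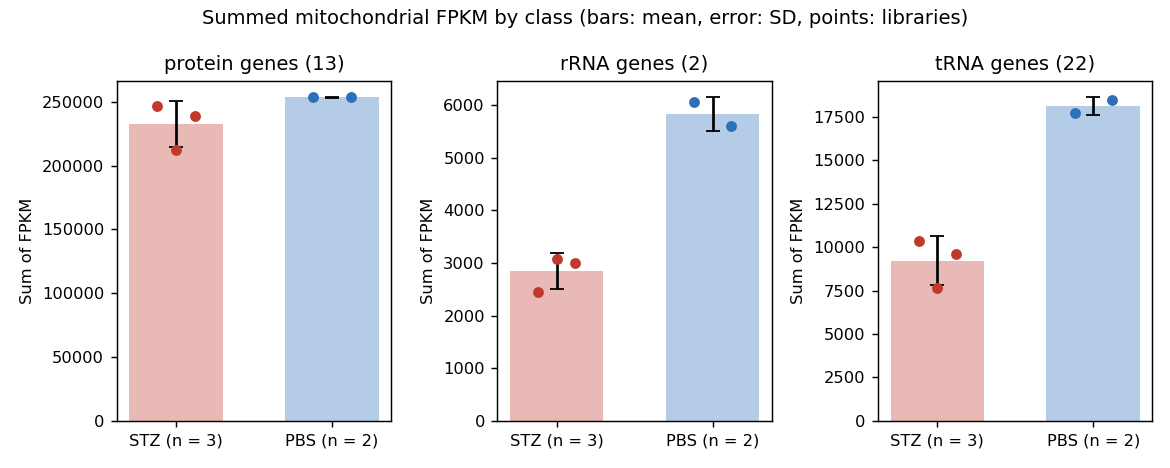
Summed FPKM (vertical axis, from 0) of the 13 protein, 2 rRNA and 22 tRNA genes of mitochondrial DNA. Bars are group means, error bars the SD and points the libraries (3 STZ, 2 PBS): the rRNA and tRNA sums in STZ are 48.7% and 50.9% of those in PBS, and the protein sum is 91.7%.

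Weighting each FPKM by gene length gives the share of mitochondrial fragments that a class implies. The tRNA genes made up 0.26 ± 0.02% of it in STZ (SD, n = 3) and 0.47 ± 0.02% in PBS (SD, n = 2), and the rRNA genes 1.54 ± 0.25% in STZ and 2.97 ± 0.14% in PBS. The protein genes held the rest, 98.2 ± 0.23% in STZ and 96.6 ± 0.13% in PBS. The genes that differed most thus account for few of the mitochondrial fragments, and at 59 to 75 bases a tRNA gene collects few fragments per unit of FPKM. Of 76 nuclear genes of at most 100 bases that were tested, 3 were higher and 1 lower in STZ, near the 3.64% and 2.17% over all genes, and their median log2 fold change was 0.30. Nuclear small RNAs without a poly(A) tail, such as Rn7sk, summed to between 0.94 and 4.31 FPKM over 14 genes in STZ and to 0.99 and 1.95 FPKM in PBS, and the groups overlapped. Rny1, Rny3, Terc, Scarna10, Scarna13, Snord17, Rnu11 and Rnu12 were below 0.1 FPKM in every fitted library. The overlap thus says little about the capture of RNA without a tail. Only 2 of the 14 passed the filter, Rn7sk and Snora73a, with adjusted p-values of 0.81 and 0.99 in limma.

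Among the tRNA genes, the 3 between mt-Nd1 and mt-Nd2 fell furthest as a cluster, together to 23.2% of the PBS mean. The isoleucine tRNA gene mt-Ti (ENSMUSG00000064342) had 99.3, 225 and 239 FPKM in STZ, against 1136 and 923 FPKM in PBS. Its groups lay far apart, and STZ replicate 1 was the lowest of all. The log2 fold change of mt-Ti was -2.54 ± 0.38 (SE; limma adjusted p = 0.0244). The glutamine tRNA gene mt-Tq, on the opposite strand, had 56.8, 80.4 and 102 FPKM in STZ and 443 and 271 FPKM in PBS, a log2 fold change of -2.14 ± 0.30 (limma adjusted p = 0.0200). The PBS libraries of mt-Tq lay far apart, but both stood above all STZ libraries. The methionine tRNA gene mt-Tm, which supplies both initiation and elongation in mitochondria, had 215, 291 and 403 FPKM in STZ and 1243 and 912 FPKM in PBS, a log2 fold change of -1.86 ± 0.28 (limma adjusted p = 0.0243).

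The next cluster, 5 tRNA genes between mt-Nd2 and mt-Co1, reached 44.7% of the PBS mean, and 4 of the 5 fell. These 4 are transcribed from the minus strand and flank the short origin from which the second DNA strand is replicated. The tyrosine tRNA gene mt-Ty had 354, 313 and 227 FPKM in STZ and 1090 and 1010 FPKM in PBS, a log2 fold change of -1.84 ± 0.20 (limma adjusted p = 0.0110). The cysteine tRNA gene mt-Tc had 485, 426 and 410 FPKM in STZ and 1105 and 1135 FPKM in PBS, a log2 fold change of -1.35 ± 0.12 (limma adjusted p = 0.00707). Libraries of the same group differed little for mt-Tc and more among the STZ libraries of mt-Ty, and the groups were well apart for both genes. The asparagine tRNA gene mt-Tn had 968, 779 and 906 FPKM in STZ and 1539 and 1742 FPKM in PBS, and the alanine tRNA gene mt-Ta had 714, 529 and 605 FPKM in STZ and 1102 and 1241 FPKM in PBS. Their log2 fold changes, -0.89 ± 0.13 for mt-Tn and -0.93 ± 0.15 for mt-Ta, were the smallest among the 12 genes that fell (limma adjusted p = 0.0244 and 0.0287). The tryptophan tRNA gene mt-Tw, the plus-strand member, did not pass: it had 439, 170 and 171 FPKM in STZ and 563 and 641 FPKM in PBS (limma adjusted p = 0.108), with STZ replicate 1 well above the other STZ libraries.

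At the start of the plus-strand map, the phenylalanine tRNA gene mt-Tf (chrM:1-68) had 4.77, 4.35 and 8.87 FPKM in STZ, against 20.9 and 26.5 FPKM in PBS. The valine tRNA gene mt-Tv, between the 2 rRNA genes, had 20.6, 13.0 and 23.97 FPKM in STZ and 44.8 and 49.6 FPKM in PBS. Both fell, with log2 fold changes of -1.87 ± 0.28 for mt-Tf and -1.29 ± 0.25 for mt-Tv (limma adjusted p = 0.0245 and 0.0412). The leucine tRNA gene mt-Tl1, which in humans holds a binding site for a transcription termination factor, had 2135, 1103 and 1115 FPKM in STZ and 2970 and 3371 FPKM in PBS. Every STZ library of mt-Tl1 was below every PBS library, but STZ replicate 1 lay well above the other STZ libraries, and the log2 fold change of -1.20 ± 0.30 did not pass (limma adjusted p = 0.0722).

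Further along the map, the arginine tRNA gene mt-Tr, between mt-Nd3 and mt-Nd4l, and the aspartate tRNA gene mt-Td, just before mt-Co2, were the other genes that fell. mt-Tr (ENSMUSG00000064361, chrM:9808-9875) had 45.3, 53.7 and 65.6 FPKM in STZ, against 229 and 215 FPKM in PBS, a log2 fold change of -2.01 ± 0.17 (limma adjusted p = 0.00707). mt-Td had 20.5, 12.6 and 37.6 FPKM in STZ, against 89.2 and 79.1 FPKM in PBS, a log2 fold change of -1.92 ± 0.41 (limma adjusted p = 0.0491). The STZ libraries of mt-Td spread over a wide range, and its call was lost with a pseudocount of 0.1 or 0.5, without the variance trend and with robust variance estimates. The most abundant mitochondrial tRNA gene, the glutamate tRNA gene mt-Te on the minus strand beside mt-Nd6, had 3404, 2504 and 3875 FPKM in STZ and 4826 and 5383 FPKM in PBS. Its groups did not overlap, and its log2 fold change of -0.67 ± 0.19 did not pass (limma adjusted p = 0.0929).

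The other tRNA genes gave no call. The lysine tRNA gene mt-Tk and the glycine tRNA gene mt-Tg had all STZ libraries below all PBS libraries, with log2 fold changes of -1.18 and -1.13 (limma adjusted p = 0.151 and 0.101). The groups overlapped for the histidine, leucine and threonine tRNA genes mt-Th, mt-Tl2 and mt-Tt, which ranged from 11.8 to 37.0 FPKM in STZ and from 24.4 to 49.7 FPKM in PBS. The proline tRNA gene mt-Tp, the last before the control region, stood out by its even values, with 1205, 1063 and 1154 FPKM in STZ and 1062 and 1102 FPKM in PBS. Its log2 fold change was 0.07 ± 0.11 (limma adjusted p = 0.697). The serine tRNA gene mt-Ts1, which shares 3 bases with mt-Co1 on the other strand, had 19.6, 17.1 and 28.4 FPKM in STZ and 18.4 and 17.8 FPKM in PBS, a log2 fold change of 0.22 ± 0.22 (limma adjusted p = 0.559).

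**Figure D3:**
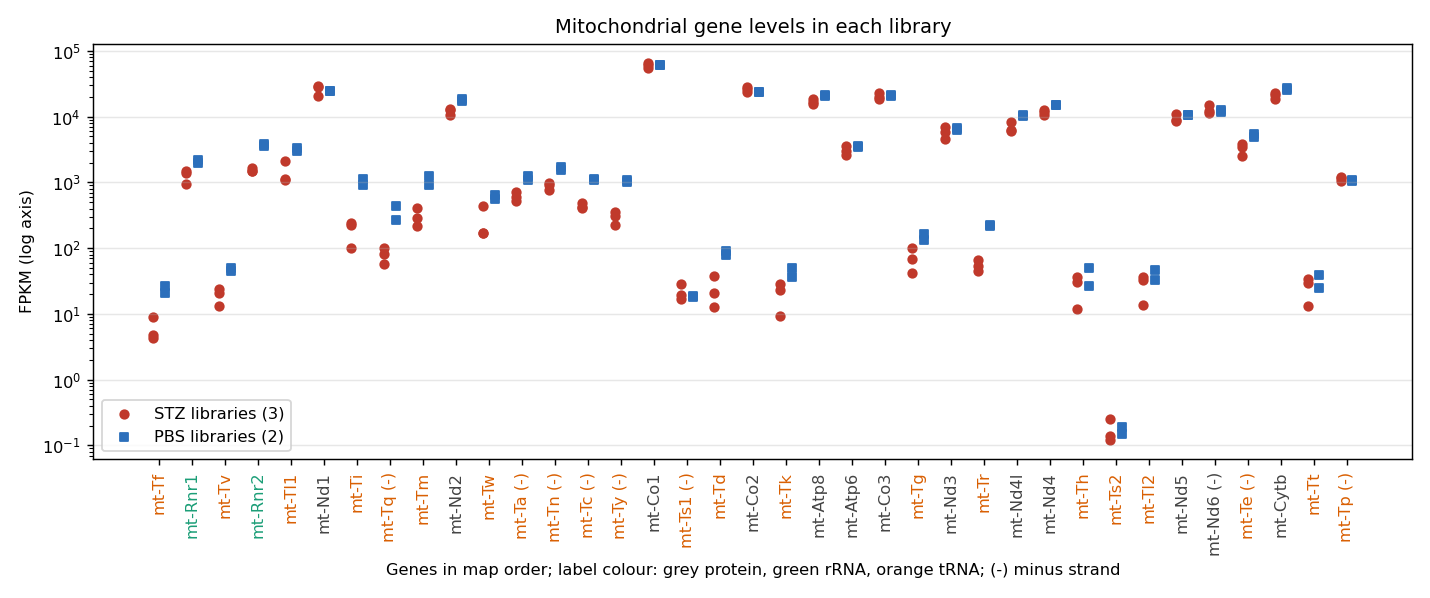
FPKM (vertical axis, log scale) of all 37 mitochondrial genes in map order (horizontal axis) in the 3 STZ libraries (red circles) and the 2 PBS libraries (blue squares). Protein genes lie near the top of the range in both groups, while most tRNA genes and both rRNA genes have all STZ circles below the PBS squares.

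By position, the 11 tRNA genes from mt-Tf to mt-Ty all had every STZ library below every PBS library, and 9 of them fell. Of the 10 tested from mt-Ts1 to mt-Tp, 5 had separate groups and 2 fell. Over all genes tested, 2.17% passed and were lower in STZ. The median log2 fold change was -1.36 in the first stretch and -0.63 in the second. Across the 21 tRNA genes tested, position and log2 fold change had a Spearman rho of 0.61, and the PBS level and log2 fold change one of -0.12. These are descriptions over genes that share the same 5 libraries. Over all mitochondrial genes tested, 23 had every STZ library below every PBS library, where 18.8% of all genes tested did.

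By strand, 6 of the 13 plus-strand tRNA genes tested and 5 of the 8 on the minus strand passed and were lower, where 2.17% of all genes tested were. A negative log2 fold change was seen for all 13 on the plus strand and for 6 of the 8 on the minus strand. Their median log2 fold changes were -1.29 on the plus strand and -0.91 on the minus strand. The plus-strand tRNA genes summed to 3170, 1963 and 2295 FPKM in STZ, against 6547 and 6565 FPKM in PBS. The minus-strand tRNA genes summed to 7206, 5711 and 7307 FPKM in STZ, against 11184 and 11902 FPKM in PBS. On both strands every STZ sum lay below every PBS sum. The STZ means were 37.8% and 58.4% of the PBS means for the plus and the minus strand, and mt-Te was the largest part of the minus-strand sum in each library. A test of the difference between strands was not made. The libraries mark strand with dUTP, but the strand setting used for counting is not stated, so the values of genes that overlap on opposite strands are uncertain.

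Of the rRNA genes, the large-subunit gene mt-Rnr2 (16S rRNA, ENSMUSG00000064339, chrM:1094-2675, plus strand) fell. It had 1501, 1673 and 1516 FPKM in STZ, against 3861 and 3609 FPKM in PBS, a log2 fold change of -1.26 ± 0.10 (limma adjusted p = 0.00707). The small-subunit gene mt-Rnr1 (12S rRNA, chrM:70-1024), which precedes it on the same precursor, had 949, 1401 and 1486 FPKM in STZ, against 2199 and 2002 FPKM in PBS. All STZ libraries of mt-Rnr1 were below both PBS libraries, and its log2 fold change of -0.74 ± 0.21 did not pass (limma adjusted p = 0.0879). STZ replicate 1 was the lowest STZ library for both rRNA genes. Within a library, mt-Rnr2 was at 158%, 119% and 102% of mt-Rnr1 in STZ, against 176% and 180% in PBS. The ratio of their values thus differed between the groups as well and varied most among the STZ libraries. The libraries were poly(A)-selected, and how far these values follow the amount of rRNA was not tested.

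None of the 13 protein genes passed the limma test. 5 had an unadjusted p under 0.05, all with negative log2 fold changes, beside 3074 of 11556 over all genes tested. Over the 13, the log2 fold changes ran from -0.62 to 0.14, with 10 negative and 3 positive. Complex I, which takes electrons from NADH, has 7 mitochondrial subunits. mt-Nd2 came nearest to the threshold, with 12756, 10501 and 12898 FPKM in STZ, against 18300 and 17082 FPKM in PBS. Its groups were clearly separate, with a log2 fold change of -0.56 ± 0.12 (limma adjusted p = 0.0507). mt-Nd4l had 8255, 6342 and 5996 FPKM in STZ and 10651 and 10295 FPKM in PBS (log2 fold change -0.62, limma adjusted p = 0.0687). mt-Nd4, which is translated from the same mRNA, had 11834, 10682 and 12502 FPKM in STZ and 14901 and 14944 FPKM in PBS (log2 fold change -0.36, limma adjusted p = 0.0881). For both, the groups did not overlap. mt-Nd1, directly after mt-Tl1, had 29805, 20674 and 28496 FPKM in STZ and 24947 and 24294 FPKM in PBS, with a log2 fold change of 0.08 ± 0.17. mt-Nd3, mt-Nd5 and the minus-strand gene mt-Nd6 also overlapped between groups, with log2 fold changes of -0.19, -0.18 and 0.06.

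The complex III gene mt-Cytb had 21271, 18684 and 22802 FPKM in STZ and 25577 and 27240 FPKM in PBS. Its groups did not overlap, and its log2 fold change was -0.34 ± 0.11 (limma adjusted p = 0.117). Of the complex IV genes, mt-Co1, the catalytic subunit and the most abundant mitochondrial transcript in every library, had 65923, 60318 and 54284 FPKM in STZ and 61500 and 60278 FPKM in PBS. Its groups overlapped, and the median log2 fold change of mt-Co1, mt-Co2 and mt-Co3 was -0.02. mt-Co2 was the one mitochondrial gene with all STZ libraries above both PBS libraries, as 28.7% of all genes tested had, at 25994, 23604 and 27938 FPKM in STZ and 23383 and 23500 FPKM in PBS, and it did not pass (log2 fold change 0.14, limma adjusted p = 0.415). Its near-identical nuclear copy Gm28661, described below, overlapped between the groups, with 25300, 21985 and 27181 FPKM in STZ and 23013 and 23172 FPKM in PBS. The separation of mt-Co2 is therefore uncertain. Of the ATP synthase genes, which share 43 bases, mt-Atp8 had a log2 fold change of -0.32 ± 0.11 (limma adjusted p = 0.127) and mt-Atp6 one of -0.21 ± 0.14 (limma adjusted p = 0.400).

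The STZ libraries had a common order in many of the genes. STZ replicate 2 was the lowest STZ library for 10 of the 13 protein genes and 16 of the 22 tRNA genes and the highest for 0 of either. STZ replicate 3 was the highest for 8 protein and 14 tRNA genes. An FPKM depends on the rest of its library, so the genes were also set against the mitochondrial total of the same library. On that scale the median log2 fold change of all genes tested was 0.21, against 0.06 with FPKM as deposited, and 13 of 36 mitochondrial genes were lower in STZ and 0 higher, where 6.98% of all genes tested passed and 1.16% were lower. The 13 were the same 12 genes and mt-Nd2, whose log2 fold change was -0.37 ± 0.09 (limma adjusted p = 0.0457). mt-Rnr1 had a log2 fold change of -0.56 there and did not pass (limma adjusted p = 0.171), and the protein median was 0.00. On average the protein genes made up 95.1% of that total in STZ and 91.4% in PBS. A protein median near 0 thus follows largely from the scale and does not show that these genes were unchanged.

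Ratios between neighbouring genes were taken within each library, for pairs on the same strand and for pairs on opposite strands. mt-Rnr2 was at 5.03%, 8.09% and 5.32% of mt-Nd1 in STZ, against 15.5% and 14.9% in PBS, although only mt-Tl1 lies between them. mt-Tl1 itself was at 7.16%, 5.33% and 3.91% of mt-Nd1 in STZ and at 11.9% and 13.9% in PBS. On the other side of mt-Nd1, mt-Ti was at 0.33%, 1.09% and 0.84% of it in STZ and at 4.55% and 3.80% in PBS. The tRNA genes on both sides of mt-Nd1 were thus lower relative to it in every STZ library. The next protein gene, mt-Nd2, was at 42.8%, 50.8% and 45.3% of mt-Nd1 in STZ and at 73.4% and 70.3% in PBS, so the ratio between these mRNAs of the same strand differed as well. mt-Te was at 27.6%, 22.2% and 25.4% of its minus-strand neighbour mt-Nd6 in STZ and at 40.3% and 42.6% in PBS, and mt-Ty was at 0.54%, 0.52% and 0.42% of mt-Co1, which is on the opposite strand, in STZ and at 1.77% and 1.68% in PBS. The ratio of mt-Co2 to mt-Co1 lay the other way, at 39.4%, 39.1% and 51.5% in STZ and 38.0% and 39.0% in PBS, with STZ replicate 3 well above the other STZ libraries. The groups were barely apart there, at 39.1% against 39.0%. The values of mt-Co1, mt-Co2 and mt-Atp6 are uncertain, because each has a near-identical nuclear copy, described below. The copy of mt-Co1 was at 45.5%, 48.3% and 60.8% of its FPKM in STZ and at 44.9% and 46.9% in PBS. Other pairs overlapped between the groups: mt-Atp6 was at 16.1% to 21.5% of mt-Atp8 in STZ and at 16.5% and 17.1% in PBS, and mt-Nd6 at 114% to 176% of mt-Nd5, on the opposite strand, in STZ and at 112% and 118% in PBS. These ratios are descriptions, chosen with the gene results known, and were given no test.

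**Figure D4:**
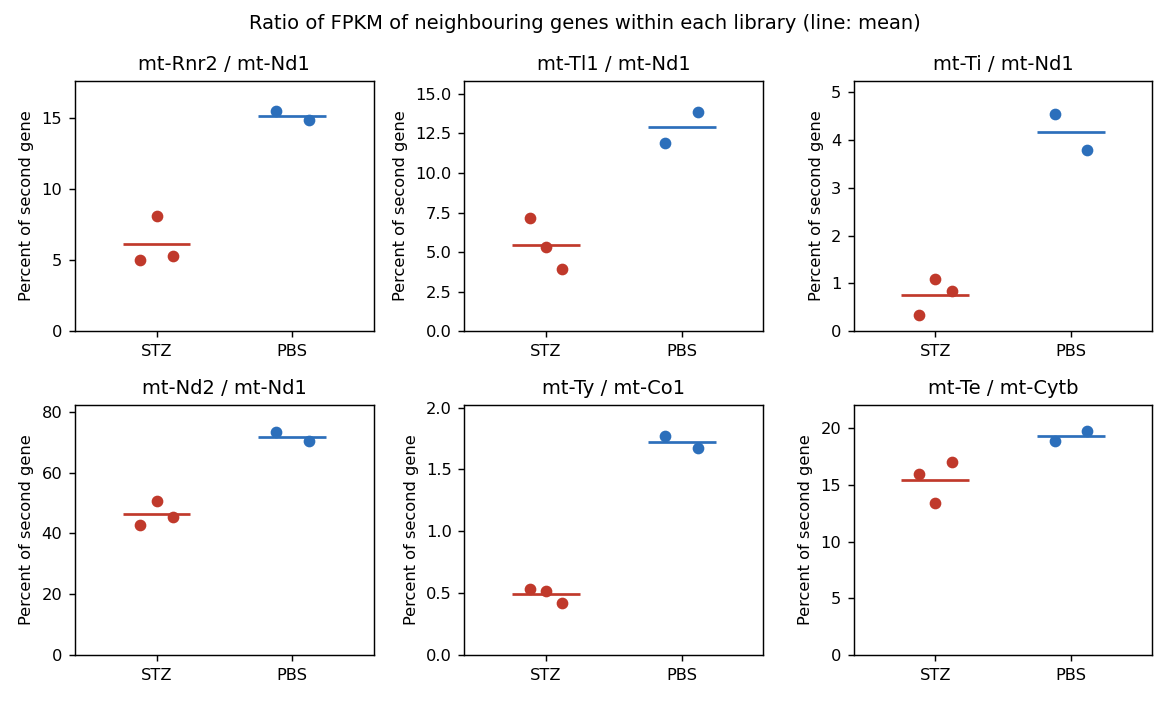
FPKM of a gene as a percentage of the FPKM of a neighbouring gene in the same library (vertical axes, from 0) for 6 pairs chosen from those lower in STZ, in 3 STZ libraries (red) and 2 PBS libraries (blue), with lines at the group means. In every pair shown all STZ libraries lie below both PBS libraries, for example at 5.03% to 8.09% in STZ and 14.9% and 15.5% in PBS for mt-Rnr2 over mt-Nd1.

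Nuclear DNA holds copies of mitochondrial sequence, and the authors' files give FPKM to them as well. A search of the annotated transcripts found 17 nuclear genes with at least 90% identity to a mitochondrial protein gene over at least 100 bases, of which 10 had a mean of at least 10 FPKM in either group. Of these, 7 exceeded 99% identity, and all 7 lie on the minus strand of chromosome 1 between 24611535 and 24616197 (GRCm38). They took 18.9% to 20.6% of the FPKM total in STZ and 19.7% and 19.8% in PBS. The copies of mt-Co2, mt-Co3, mt-Atp6, mt-Nd4l and mt-Nd4 (Gm28661, Gm28437, Gm10925, Gm10222 and Gm28439) matched over their aligned bases without a mismatch, and Gm29216 and Gm28438 differed from mt-Co1 and mt-Nd3 at 1 base each. These 2 differences are shown in the first 41 bases of each alignment, with the base that differs in capitals.
mt-Co1: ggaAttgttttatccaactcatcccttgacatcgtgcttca
Gm29216: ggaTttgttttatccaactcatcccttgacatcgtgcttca
mt-Nd3: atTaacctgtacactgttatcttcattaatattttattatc
Gm28438: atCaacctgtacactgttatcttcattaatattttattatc
Counted from 1 at the 5′ end of the mitochondrial gene, the substitutions are A1066T in mt-Co1 and T3C in mt-Nd3. Reads from such sequence cannot be assigned to one copy, so the levels of the 7 protein genes are uncertain. Gm28661, for example, had 93.1% to 97.3% of the FPKM of mt-Co2 in STZ and 98.4% and 98.6% in PBS, whereas Gm10925 had 517% to 561% of that of mt-Atp6 in STZ and 537% and 518% in PBS. The other copies above 10 FPKM, Gm13340, Gm13341 and Gm13339 on chromosome 2, were 95.9% to 97.6% identical to their genes and had at most 1.4% of their FPKM. None of the 10 copies passed the limma test (3 had an unadjusted p under 0.05). Adding each copy to its gene changed the values of protein genes only, and 0 of these passed. The same 12 rRNA and tRNA genes were called, but their own values were untouched, so this run could not test them. The search found no copy of a tRNA or rRNA gene, though a tRNA gene is too short to have reached 100 aligned bases.

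Nuclear genes that make, process and use mitochondrial RNA gave no call, in lists of 8 to 21 tested genes. Over all genes 5.82% were called, and 3074 of 11556 had an unadjusted p under 0.05. For transcription of mitochondrial DNA, 0 of 8 tested genes passed (2 with an unadjusted p under 0.05), with a median log2 fold change of -0.18. The termination factor family member Mterf2 had 4.34, 6.06 and 4.49 FPKM in STZ and 7.71 and 7.59 FPKM in PBS (log2 fold change -0.55, limma adjusted p = 0.0928). Mrpl12, a protein of the large ribosomal subunit that also binds POLRMT, had 69.8, 66.5 and 69.8 FPKM in STZ and 83.5 and 87.7 FPKM in PBS (log2 fold change -0.31, limma adjusted p = 0.141). For replication and maintenance of mitochondrial DNA, 0 of 9 passed (1 with an unadjusted p under 0.05). The smallest p-values there were those of the thymidine kinase Tk2, with a log2 fold change of 0.42 (limma adjusted p = 0.146), and the ribonuclease Rnaseh1, with 0.24 (limma adjusted p = 0.318).

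For cutting out and maturation of mitochondrial tRNA and rRNA, 0 of 20 tested genes passed in limma (6 with an unadjusted p under 0.05), with a median log2 fold change of -0.14. Ptcd1, a pentatricopeptide protein that acts on mitochondrial leucine tRNAs and 16S rRNA, had 9.68, 10.9 and 8.11 FPKM in STZ, against 6.16 and 5.87 FPKM in PBS. Tfb1m, which methylates 12S rRNA, had 0.73, 1.3 and 0.74 FPKM in STZ, against 2.25 and 1.76 FPKM in PBS. The groups did not overlap for either gene, and the log2 fold changes of 0.58 and -0.65 did not pass (limma adjusted p = 0.0747 and 0.0887). Over all genes tested, 28.7% had every STZ library above every PBS library and 18.8% every one below. For stability, polyadenylation and decay of mitochondrial RNA, 0 of 14 passed (3 with an unadjusted p under 0.05). The RNA-binding protein Fastkd2, required for 16S rRNA, had a log2 fold change of -0.54 (limma adjusted p = 0.0704), and the exoribonuclease Pnpt1 one of -0.38 (limma adjusted p = 0.120). Of the list of mitochondrial aminoacyl-tRNA synthetases, which load tRNAs with amino acids, 0 of 21 passed (5 with an unadjusted p under 0.05). The list also held Qrsl1, Gatb and Gatc, which are amidotransferase subunits and not synthetases. Of the 21, 19 had a negative log2 fold change, with a median of -0.13 over the list. Gars and Kars, which also serve the cytosol, had positive ones. The smallest p-values were those of the cysteine enzyme Cars2, with -0.49 (limma adjusted p = 0.0599), and the leucine enzyme Lars2, with -0.53 (limma adjusted p = 0.0783).

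Regulators of mitochondrial biogenesis gave 0 calls among 6 tested (2 with an unadjusted p under 0.05). The coactivator Ppargc1a had 17.4, 17.4 and 12.6 FPKM in STZ and 12.2 and 10.3 FPKM in PBS, and Ppargc1b had 2.78, 4.23 and 2.41 FPKM in STZ and 1.69 and 1.33 FPKM in PBS. Both had all STZ libraries above both PBS libraries, as 28.7% of all genes tested had. Their log2 fold changes of 0.45 and 0.70 did not pass (limma adjusted p = 0.178 and 0.0986). The nuclear subunits of the complexes that the mitochondrial proteins join gave few calls. Of complex I, 0 of 36 passed (2 with an unadjusted p under 0.05), with a median log2 fold change of -0.06. Ndufs8 and Ndufa7 had the smallest p-values, with log2 fold changes of -0.42 and 0.33 (limma adjusted p = 0.103 and 0.183). Of complex III, 0 of 9 passed (2 with an unadjusted p under 0.05), and the smallest p-values were those of cytochrome c1 (Cyc1, log2 fold change -0.37, limma adjusted p = 0.0953) and the iron-sulfur protein Uqcrfs1 (-0.31, limma adjusted p = 0.136).

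In complex IV and ATP synthase, 1 nuclear gene each passed, of 15 and 16 tested, a share close to the 5.82% over all genes. Cox7a1, the heart and skeletal muscle form of a small complex IV subunit, had 572, 506 and 675 FPKM in STZ and 1213 and 1062 FPKM in PBS. It fell, with a log2 fold change of -0.97 ± 0.15 (limma adjusted p = 0.0261), and its call was lost without STZ replicate 1 (limma adjusted p = 0.0575), STZ replicate 2 (0.0513), PBS replicate 1 (0.214) or PBS replicate 2 (0.140) and without the filter on low values (0.0968). Atpif1, an inhibitor of the hydrolase activity of ATP synthase and not a subunit of the working enzyme, had 119, 141 and 147 FPKM in STZ and 57.5 and 66.0 FPKM in PBS. It rose, with a log2 fold change of 1.12 ± 0.15 (limma adjusted p = 0.0169), and its call was lost without PBS replicate 1 (limma adjusted p = 0.147) or PBS replicate 2 (0.110) and without the filter on low values (0.0621). The median log2 fold change was 0.06 over the complex IV genes and 0.05 over the ATP synthase genes.

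**Figure D5:**
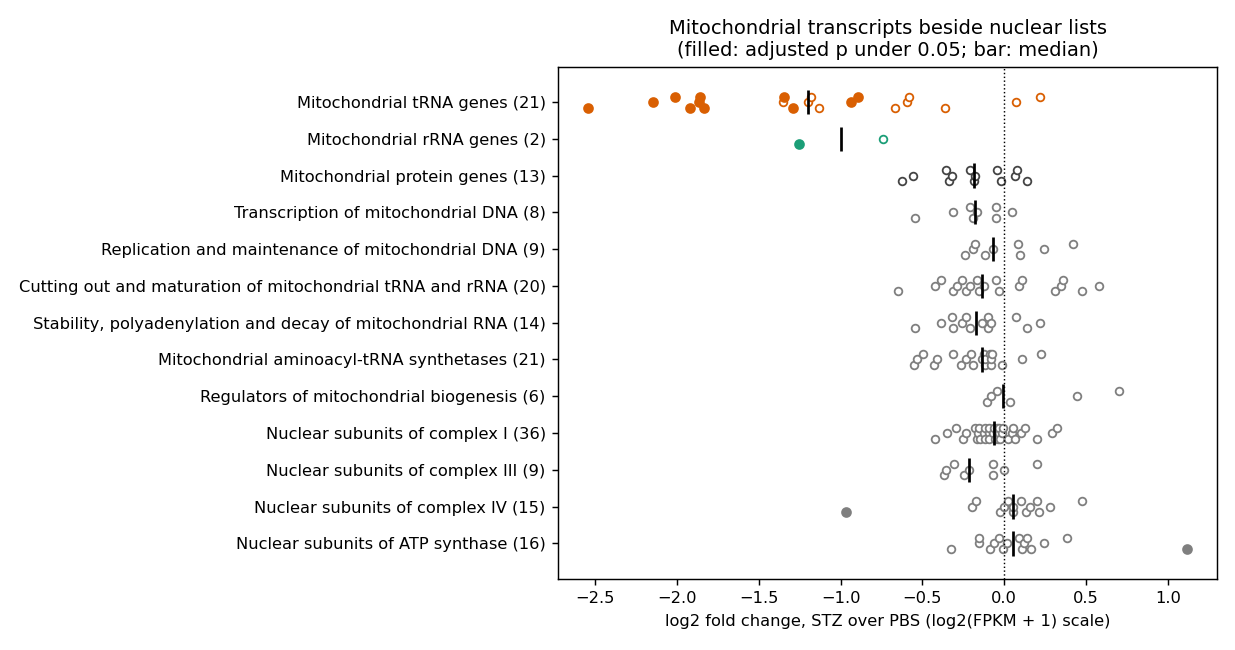
Log2 fold change of STZ over PBS (horizontal axis, log2(FPKM + 1) scale) for each tested gene of the mitochondrial classes and of 10 nuclear lists, with a bar at the median of each row and filled points for an adjusted p under 0.05. The tRNA and rRNA rows lie to the left with 11 and 1 filled points, and the nuclear rows are centred between -0.22 and 0.06 with 2 filled points in all.

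Some markers of cell types that the tissue could hold also differed between the groups. Separate groups alone are common, as 18.8% of all genes tested had every STZ library below every PBS library and 28.7% every one above. The 7 cardiomyocyte markers summed to 9212 to 11924 FPKM in STZ and to 12261 and 13328 FPKM in PBS, without overlap, and 0 of the 7 passed the limma test (3 with an unadjusted p under 0.05). The members of this list did not share a direction: Myh6, Mb and Ryr2 had all STZ libraries below both PBS libraries, Tnnt2 and Actn2 had all above, and Tnni3 and Myl2 overlapped. The 5 neutrophil markers summed to 40.6 to 60.8 FPKM in STZ and to 3.29 and 7.50 FPKM in PBS, and all 3 that were tested rose. The filter on low values admits a marker that is very low in PBS only where it is high in STZ. The count of 3 is therefore not independent of the filter. The 5 adipocyte markers summed to 39.0 to 47.3 FPKM in STZ and to 15.7 and 20.5 FPKM in PBS, with Ucp1, Plin1 and Lep below 0.1 FPKM in every library, and Cidea, the only one tested, rose. Endothelial markers summed to 115 to 138 FPKM in STZ and to 112 and 113 FPKM in PBS, and erythroid markers to 329 to 959 FPKM in STZ and to 283 and 310 FPKM in PBS, also without overlap in the sums. Of the 5 endothelial markers 0 passed in limma (2 with an unadjusted p under 0.05), and Kdr had all STZ libraries below both PBS libraries while Pecam1 and Egfl7 had all above. Of the 5 erythroid markers 0 passed, and 0 had an unadjusted p under 0.05. The summed fibroblast, mural, macrophage and atrial markers overlapped between the groups, but the fibroblast marker Col1a1 (log2 fold change -1.67, limma adjusted p = 0.00806) and the smooth muscle marker Acta2 (-1.16, limma adjusted p = 0.0221) fell. The 4 atrial markers ranged most, from 961 to 3304 FPKM in STZ and from 302 to 1328 FPKM in PBS. The part of these differences in the mitochondrial rRNA and tRNA values was not tested.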

How the data were processed

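RNA was measured in the myocardium of STZ-injected and PBS-injected mice, with poly(A) selection and dUTP marking of the second strand per the labels' protocols. The authors deposited gene-level FPKM with 2 decimals, per the file headers. Per the submitters' processing notes, cutadapt 1.9, HISAT2 2.0.4, StringTie 1.3.4d and GRCm38 were used; the strand setting used in counting and the annotation release are unstated. Identifiers were matched to GENCODE M21, and 55141 of 55401 had a symbol.

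Genes reaching 1 FPKM in 2 or more of the 5 complete libraries were tested on log2(FPKM + 1), which understates the change of low genes, with limma 3.58.1 in R 4.3.3 (lmFit, then eBayes with a variance trend). P-values are two-sided and were adjusted by Benjamini-Hochberg over the 11556 genes, with a threshold of 0.05. Libraries listing under 50% of the genes were left out. Groups were taken from the treatment labels. The fit was also run on simulated data with independent normal noise for each gene, a run that cannot check scaling or nuclear copies. Nuclear copies were found with BLAST 2.17.0. All mitochondrial genes are named; of each nuclear list, up to 4 genes that passed, or the 2 with the smallest p where none did. Members and lists were chosen with earlier results of these data known. Alternatives covered the pseudocount, filter, scaling, variance model, replicate block, libraries left out or added, and copies added to their genes.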

Additional observations from a re-analysis of the deposited data

How the results depend on the processing

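Of 36 mitochondrial genes tested, 12 passed in limma with the values as reported, 2 with no filter on low values (26229 genes then tested, 81 passing) and 6 with the replicate number as a block. In the block run STZ replicate 3 had no PBS partner, so the group difference rested on replicates 1 and 2. Deviations of same-numbered libraries, over 4811 genes listed in all 6 files, correlated at 0.18, -0.05 and 0.15, and replicate 2 did not correlate best with its own number, so the numbers were not taken to pair the libraries. Over all genes 64 passed under the block, and Atpif1 did not (limma adjusted p = 0.0537). Leaving out 1 library gave 0 to 12 mitochondrial calls, and 24 and 29 calls over all genes without PBS replicate 1 and 2, where the remaining PBS library is assumed to vary like the STZ ones. The remaining alternatives gave 11 to 13 calls, with mt-Nd2 gained under 5 of them and mt-Cytb (quantile normalization) under 1. The protein median was 0.00 after quantile normalization, which gives genes of equal rank the same value in every library. It was -0.00076 after rescaling to the mitochondrial total, which the protein genes dominate. Neither value shows that the protein genes were unchanged. The tRNA median ranged from -1.36 to -1.01. Among 684 values of mitochondrial genes under alternatives, 18 changed sign, 9 newly passed and 53 no longer passed.

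Values that changed sign did not pass with the values as reported. With quantile normalization, log2 fold changes were 0.089 for mt-Atp6, 0.038 for mt-Co3, 0.172 for mt-Nd3, 0.0439 for Gm10925, 0.118 for Gm28437 (limma adjusted p = 0.0413) and 0.0798 for Gm28438. Rescaled to the mitochondrial total, they were 0.163 for mt-Co1, 0.143 for mt-Co3, 0.00377 for mt-Nd5, 0.0157 for Gm10925 and 0.137 for Gm28437; rescaled to TPM, 0.0475 for mt-Co1, 0.0275 for mt-Co3 and 0.0213 for Gm28437. For mt-Nd6 they were -0.00513 after centring and -0.0112 after rescaling without mitochondrial genes and copies, which gave -0.00072 for mt-Tp. With the replicate block, mt-Co1 was at 0.0506 and mt-Nd6 at -0.0596. With 1 library left out in turn, values ran from -0.0895 to 0.0506 for mt-Co1, -0.126 to 0.025 for mt-Co3, -0.0204 to 0.243 for mt-Nd1, -0.0596 to 0.159 for mt-Nd6, -0.693 to 0.0421 for mt-Tt, -0.13 to 0.0258 for Gm28437 and -0.356 to 0.32 for Snora73a, among them 0.0127 for Snora73a without STZ replicate 2. The cause of these changes was not tested. The depth is unknown, so no counting error is given.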
